A study of Mus musculus with 119 samples.

Results

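The 4 genes described here encode the transporters that fill synaptic vesicles with the main fast transmitters of the brain: Slc17a7, Slc17a6 and Slc17a8 (the vesicular glutamate transporters VGLUT1, VGLUT2 and VGLUT3) and Slc32a1 (the vesicular GABA transporter VGAT). They were taken by name as a family, with earlier results of these data known. They are 4 of the 55291 genes listed in both count tables. Each was followed as CPM, its count scaled to the effective library total, in 119 libraries, across 5 brain regions and in THC against vehicle within each of 10 combinations of region and sex.

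Female and male mice received 10 mg/kg THC or vehicle (ethanol, tween and saline) by daily intraperitoneal injection from postnatal day 28 to 48, and were tested from postnatal day 63 after a period without drug. Poly(A) RNA was sequenced from punches of 5 regions: the ventral tegmental area (VTA), the prefrontal cortex (PFC), the amygdala (Amy), and within the striatum its dorsomedial part (DMS) and the accumbens (NAc). Each of the 20 groups of region, sex and treatment held 6 libraries except the male VTA vehicle group, which held 5 after a sample of low RNA integrity was left out by the authors. Their methods also state that a male VTA sample was removed as an outlier after sequencing. The methods do not name it or say whether it is among the deposited libraries, and all 119 of these were kept here. The sample labels give C57BL/6J mice aged 11 weeks and name the striatal punch dorsolateral, whereas the methods of the study give the C57BL/6NCrl substrain and the dorsomedial striatum. Each region of a mouse was its own library and the regions share mice, but the labels do not tie libraries to mice. A punch holds every cell type of the tissue it contains.

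Libraries held 3.09 M to 77.04 M counts, with a median of 22.1 M. The PFC and DMS libraries, which stand in 1 table, spanned 17.8 M to 25.5 M. The NAc, Amy and VTA libraries, which stand in another, spanned the full range, and the lowest total belonged to library FTL_371, a male VTA vehicle. Marker genes were checked for the PFC, striatum and VTA, and no list marked the Amy alone. The summed level of 10 projection neuron markers averaged 817 CPM in the PFC and 59.8 to 233 CPM elsewhere, that of 10 medium spiny neuron markers averaged 10045 CPM in DMS libraries and 4572 CPM in those of the NAc, against 1109 CPM or less elsewhere, and that of 10 dopaminergic markers averaged 3827 CPM in the VTA against 67.8 CPM or less elsewhere.

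The sex genes went against the label of 2 Amy libraries. The library labelled female Amy THC FTL_344 held 0.293 CPM of Xist and 139 CPM of summed Y chromosome genes, while the other female Amy libraries held 236 to 611 CPM of Xist. The library labelled male Amy THC FTL_356 held 488 CPM of Xist and 0.371 CPM of summed Y genes, while the other male Amy libraries held 68.8 to 157 CPM of Y genes. Both were kept under their labels. THC tests of the members in the Amy are given with and without them, while levels, marker sums and relations over Amy libraries include them.

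Vesicular transporters use the proton gradient made by the vacuolar proton pump to load transmitter, and a neuron that expresses a glutamate transporter of this family can release glutamate. VGLUT1 is typical of cortical, hippocampal and basolateral amygdala projection neurons, and VGLUT2 of thalamic, hypothalamic, midbrain and other subcortical glutamatergic neurons, whereas VGLUT3 is found in groups of cells better known for another transmitter, such as striatal cholinergic interneurons and raphe serotonergic neurons. VGAT loads GABA and glycine, and marks inhibitory neurons including the medium spiny neurons of the striatum.

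In the GENCODE vM21 annotation of GRCm38, Slc17a7 lies at chr7:45163949-45176142 on the plus strand and Slc17a6 at chr7:51622006-51671119 on the same strand. Slc17a8 lies at chr10:89574020-89621253 on the minus strand and Slc32a1 at chr2:158610767-158615748 on the plus strand. The principal transcripts of the 3 glutamate transporters have 12 exons each, and that of Slc32a1 has 2. Annotated genes overlap Slc17a7 (Mir7055, same strand), Slc17a6 (Gm45072, same strand) and Slc32a1 (Gm14205, opposite strand), and how reads from the shared stretches were assigned is not known.

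The start regions are shown for Slc17a7, the member called with THC, and for Slc17a6, the member highest in the VTA. The RefSeq entries on GRCm38.p6 cover chr7:45163671-45163970 for Slc17a7 and chr7:51621580-51621879 for the first of the 2 Slc17a6 entries, both on the plus strand. The Slc17a7 window holds the GENCODE start given above, while the Slc17a6 window ends upstream of its GENCODE start, so the 2 annotations place that start differently. Capitals mark GGGCGG, the core of the GC box, or its reverse complement CCGCCC:
Slc17a7: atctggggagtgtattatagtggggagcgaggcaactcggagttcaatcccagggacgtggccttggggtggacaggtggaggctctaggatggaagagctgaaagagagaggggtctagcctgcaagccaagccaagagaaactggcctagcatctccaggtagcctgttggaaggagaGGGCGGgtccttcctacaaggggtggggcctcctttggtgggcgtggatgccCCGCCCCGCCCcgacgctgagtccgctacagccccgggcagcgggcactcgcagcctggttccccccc
Slc17a6: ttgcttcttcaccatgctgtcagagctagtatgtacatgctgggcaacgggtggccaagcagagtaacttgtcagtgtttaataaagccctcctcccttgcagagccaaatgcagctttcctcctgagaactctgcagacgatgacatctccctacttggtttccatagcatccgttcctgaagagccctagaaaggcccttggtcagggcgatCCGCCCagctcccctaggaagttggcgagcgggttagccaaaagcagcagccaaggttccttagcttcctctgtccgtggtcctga
On both strands, the Slc17a7 window held 3 such matches and the Slc17a6 window 1. A pair of the Slc17a7 matches overlap by 1 base. A match is a description of the sequence and no evidence that a factor binds there. Of 32851 promoter windows of this length, 35.7% held the motif. The other motifs searched, likewise on both strands, had no match in either window. These were the E box CAGATG, found in 17.2% of all windows, and the sequence TATAAA of the promoter element bound by the TBP protein, found in 13.6%. The windows of Slc32a1 and of the first of 2 Slc17a8 entries held none of these motifs, and the second entries of Slc17a6 and Slc17a8 each held 1 match to the E box.

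The make-up of transporter transcripts differed between regions but was much alike in the DMS and NAc. Per kilobase of the principal transcript, Slc17a7 made up 95.4% of the summed level of the 4 genes in the PFC and 63.6% in the Amy. Slc32a1 made up 92.3% in the DMS, 91.3% in the NAc and 52.7% in the VTA, where Slc17a6 followed with 41.1%. Slc17a8 made up 4.22% in the DMS, where it ranked second, and 2.33% or less in the other regions. The ranks were the same in all 5 regions when the length of all exons of a gene was used in place of the principal transcript, a choice made after the data were seen.

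**Figure D1:**
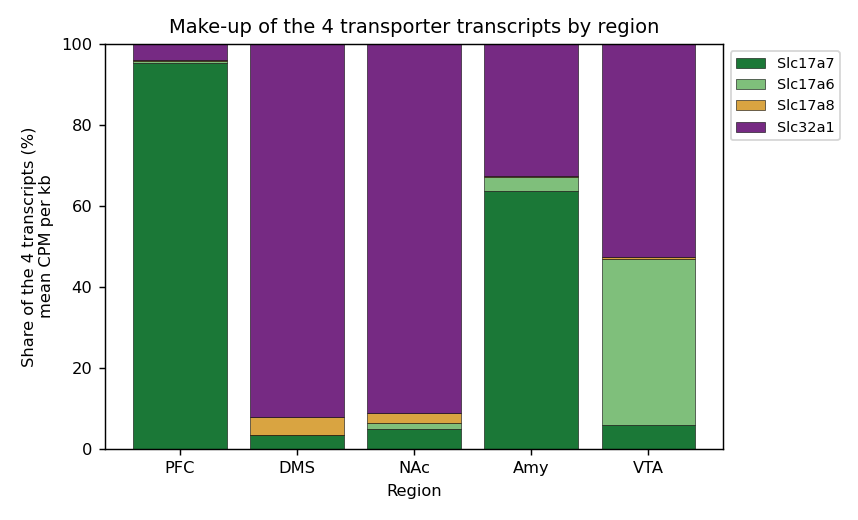
Share of each transporter (percent of the summed mean CPM per kilobase of transcript of the 4 genes) in each region; bars start at 0 and are means over 24 libraries (23 in the VTA). Slc17a7 fills most of the PFC and Amy bars, Slc32a1 most of the DMS and NAc bars, and Slc17a6 41.1% of the VTA bar.

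Slc17a7 was the cortical member. Its level was 1902 ± 76.9 CPM in the PFC (SD, n = 24, lowest 1763, median 1901, highest 2092) and 637 ± 216 CPM in the Amy (n = 24, lowest, median and highest 283.4, 620 and 1107). It was 21.9 ± 33.8 CPM in the VTA (n = 23, lowest, median and highest 0.875, 2.85 and 127), 21.1 ± 31.6 CPM in the NAc (n = 24, lowest, median and highest 0.669, 2.51 and 115) and 12.1 ± 41.5 CPM in the DMS (n = 24, lowest, median and highest 1.66, 2.74 and 206). Every PFC library lay above every Amy library, and every Amy library above every VTA library, whereas VTA, NAc and DMS overlapped, so the order of those 3 regions is not resolved. The SD exceeded the mean in each of these 3 regions. In the NAc 9 of 24 libraries held 19.5 CPM or more and the others 8.87 CPM or less, in the VTA 7 of 23 held 35.9 CPM or more and the others 14.3 CPM or less, and in the DMS 1 library stood above 19.0 CPM.

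Slc17a6 was highest in the VTA, at 221 ± 63.4 CPM (SD, n = 23, lowest 131, median 209, highest 365.7). The Amy followed at 50.4 ± 23.1 CPM (n = 24, lowest, median and highest 10.8, 50.2 and 110), then the PFC at 14.0 ± 1.83 CPM (9.49, 14.0 and 17.9), the NAc at 8.92 ± 6.17 CPM (1.32, 8.27 and 25.6) and the DMS at 0.244 ± 0.421 CPM (0, 0.0931 and 1.86). No VTA library overlapped the Amy, and the other neighbours in this order overlapped. In the DMS 7 of 24 libraries had a count of 0 and the highest count was 45, so Slc17a6 failed the filter on low counts in both sexes there and was not tested.

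Slc17a8 was the striatal member of the glutamate transporters at low abundance. It reached 22.5 ± 3.46 CPM in the DMS (SD, n = 24, lowest 14.1, median 23.1, highest 28.0) and 15.3 ± 3.43 CPM in the NAc (n = 24, lowest, median and highest 9.03, 14.6 and 23.2), with overlapping ranges. The PFC held 4.27 ± 0.812 CPM (2.901, 4.08 and 6.40), the Amy 3.05 ± 1.24 CPM (1.12, 2.88 and 6.32) and the VTA 2.12 ± 2.49 CPM (0.441, 1.21 and 12.2). Every NAc library lay above every PFC library, and the 3 lower regions overlapped. Counts in the VTA were as low as 4 in a library, which limits the precision of its values there.

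Slc32a1 was present at 65.8 CPM or more in every library. It was 375.3 ± 15.9 CPM in the NAc (SD, n = 24, lowest 347.6, median 372.8, highest 408), 313.7 ± 39.1 CPM in the Amy (n = 24, lowest, median and highest 251, 313.04 and 402) and 309.3 ± 18.9 CPM in the DMS (n = 24, lowest, median and highest 265.5, 306.6 and 358.7). It was 191 ± 39.9 CPM in the VTA (n = 23, lowest, median and highest 99.6, 193 and 265.7) and 75.6 ± 4.18 CPM in the PFC (n = 24, lowest, median and highest 65.8, 75.3 and 83.3). The NAc, Amy and DMS overlapped one another, 1 VTA library reached into the DMS range, and every PFC library lay below every VTA library.

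**Figure D2:**
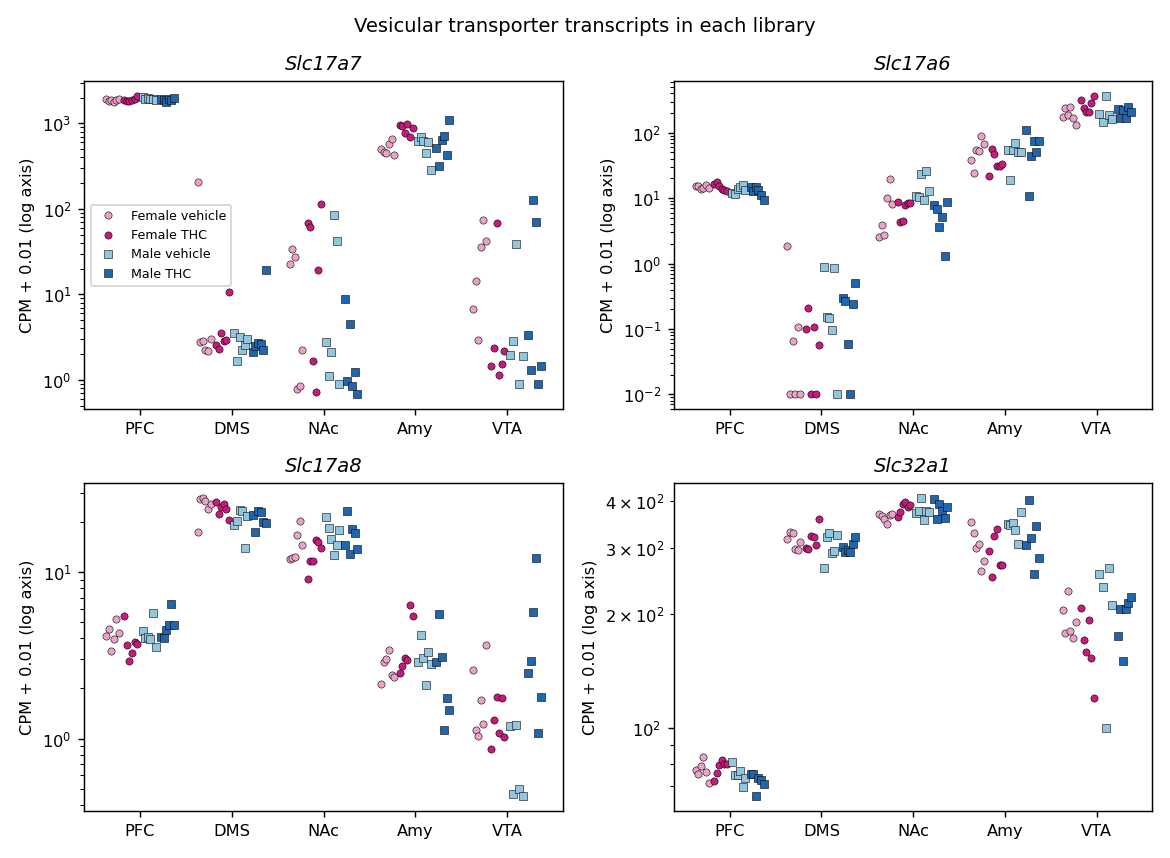
CPM of each transporter in each of the 119 libraries (0.01 added, log axis) by region; circles are females, squares males, and dark symbols THC. Slc17a7 is spread over more than an order of magnitude in the NAc, VTA and DMS, while Slc32a1 stays between 65.8 and 83.3 CPM in the PFC.

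Tests between regions were made among vehicle libraries of the same table, in edgeR with Benjamini-Hochberg adjustment over all genes tested and a call at an adjusted p under 0.05 where the log2 fold change was 0.4 or more in either direction. These libraries were treated as independent although regions share mice, so their p-values are approximate. Between DMS and PFC, 4 of 4 members were called, against 48.7% of all genes tested. DESeq2 called 2 of them and gave no adjusted p for Slc17a6 and Slc17a7. Slc17a7 fell by 7.04 on the log2 scale in the DMS (SE 0.84, adjusted p = 7.80e-08) and Slc17a6 by 5.27 (SE 0.36, adjusted p = 4.32e-12). Both sizes depend on female DMS vehicle library FTL_285, which held 206 CPM of Slc17a7 against a vehicle median of 2.81 CPM. In a fit without it, chosen after the data were seen, the log2 fold changes were -9.49 for Slc17a7 (SE 0.06, adjusted p = 2.23e-37) and -6.09 for Slc17a6 (SE 0.30, adjusted p = 5.65e-15). Slc17a8 was higher in the DMS by 2.41 (SE 0.10, adjusted p = 2.07e-18) and Slc32a1 by 2.03 (SE 0.04, adjusted p = 8.34e-27). With so large a share of all genes called, the count says little about this family, and the sizes of the differences are the result.

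Between Amy and NAc, 3 of 4 members were called, against 24.4% of genes. Slc17a7 was higher in the Amy by 4.78 on the log2 scale (SE 0.74, adjusted p = 1.77e-06) and Slc17a6 by 2.21 (SE 0.30, adjusted p = 1.78e-07), while Slc17a8 fell by 2.49 (SE 0.21, adjusted p = 3.09e-12). Slc32a1 had a log2 fold change of -0.24 (SE 0.08, adjusted p = 0.0116), which is under the minimum size for a call. Between VTA and NAc, 3 of 4 were called, against 51.6% of genes. Slc17a6 was higher in the VTA by 4.17 (SE 0.32, adjusted p = 1.49e-13), Slc17a8 fell by 3.71 (SE 0.25, adjusted p = 1.70e-15) and Slc32a1 fell by 0.89 (SE 0.08, adjusted p = 5.06e-12). Slc17a7 did not differ beyond its spread (log2 fold change -0.16, SE 0.76, adjusted p = 0.858), and its sign turned without male VTA vehicle library FTL_369, FTL_370, FTL_372 or FTL_373 (0.02, 0.05, 0.07 and 0.06).

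Between VTA and Amy, 4 of 4 members were called, against 43.1% of genes. Slc17a6 was higher in the VTA by 1.96 on the log2 scale (SE 0.28, adjusted p = 2.22e-07). Slc17a7 fell by 4.93 (SE 0.80, adjusted p = 1.88e-06), Slc17a8 by 1.22 (SE 0.26, adjusted p = 9.13e-05) and Slc32a1 by 0.65 (SE 0.08, adjusted p = 1.08e-08). The Slc17a8 difference was not called in THC libraries (log2 fold change -0.32, adjusted p = 0.404).

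The genes whose levels followed each member most closely over the 119 libraries were taken as those with the highest Pearson r in log2 CPM among 18932 genes. These r describe differences between regions and carry no test. The count tables hold different regions, so these r, like levels compared across tables, mix region with table. For Slc17a7 they were Ccn3 (r = 0.942), Neurod2 (0.937), Emx1 (0.932), Tbata (0.927) and Prss23 (0.925), of which Neurod2 and Emx1 are transcription factors of cortical projection neurons. For Slc17a6 they were Kcnj16 (0.981), Podxl2 (0.980), Camk2n2 (0.978), Cd83 (0.976) and Adcy8 (0.975). Slc17a8 was followed by Flrt3 (0.919), Slmap (0.916), Rasl10b (0.914), Cacna2d3 (0.913) and Ddx5 (0.910). For Slc32a1 they were Six3os1 (0.973), Six3 (0.964), a transcription factor of the striatal lineage, Ccdc187 (0.957), Ecel1 (0.957) and Prrt4 (0.954).

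THC was compared with vehicle in each region and sex to ask whether adolescent exposure left a lasting difference in transcript levels. In edgeR, 1 of the 38 tests of members was called, Slc17a7 in the female Amy, and 5 had an unadjusted p under 0.05. DESeq2 also called 1 of them. Over all genes of the 10 comparisons, 0.167% of 161267 tests were called and 8.15% had an unadjusted p under 0.05. In the 4 comparisons that hold the 5 tests of members, that p was under 0.05 for 3724 of 17003 genes (female Amy), 2653 of 15932 (male NAc), 1421 of 15747 (female VTA) and 1012 of 17103 (male VTA).

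**Figure D3:**
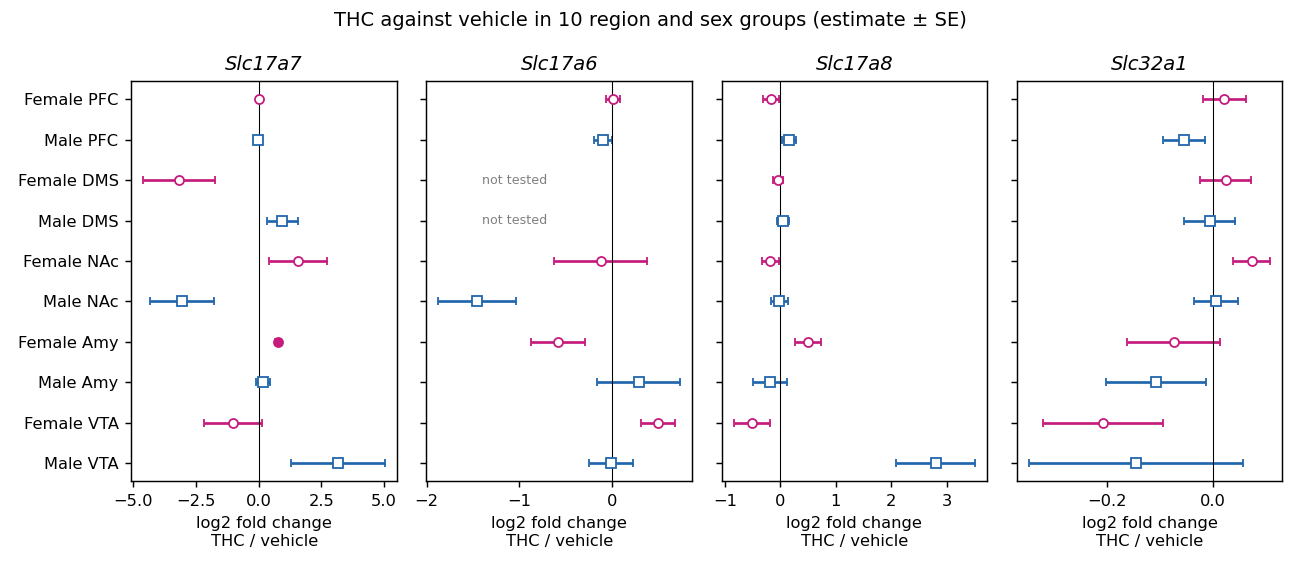
Log2 fold change of THC over vehicle for each transporter in each region and sex (point) with its standard error (bar); circles are females, squares males, and each panel has its own axis. The filled point, Slc17a7 in the female Amy at 0.76, is the 1 called; Slc17a6 was not tested in the DMS.

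Female Amy libraries held more Slc17a7 after THC. Vehicle libraries ranged from 431 to 649 CPM (median 479) and THC libraries from 688 to 989 CPM (median 908). Vehicle library FTL_338, the lowest, also held 236 CPM of Xist against 494 to 555 CPM in the other vehicle libraries. Over all genes its counts lay farther from each of those than they lay from one another. All 6 THC libraries lay above all 6 vehicle libraries, but the share of all genes that separate in this way was not counted. The log2 fold change was 0.76 (SE 0.11, adjusted p = 0.00859), and 1 of 4 members was called against 1.57% of the 17003 genes tested (186 higher and 81 lower). Without the library labelled female FTL_344, at 882 CPM, it was 0.76 (SE 0.12, adjusted p = 0.0199). It was called in each of the 12 fits that leave out a library, at 0.72 to 0.83. It was not called when all 4 Amy groups shared a fit (0.76, adjusted p = 0.0870). The count over all genes was less steady, at 129 without library FTL_333, 60 without FTL_335, 58 without FTL_339, 74 without FTL_340, 56 without FTL_342 and 159 without FTL_344. In bulk tissue, fewer or more cells of a type and less or more RNA per cell cannot be told apart.

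The other members in the female Amy were not called. Slc17a6 ranged from 24.5 to 88.9 CPM (median 53.7) in vehicle and from 21.8 to 55.6 CPM (median 32.1) in THC libraries. These ranges overlapped (log2 fold change -0.58, SE 0.29, adjusted p = 0.264, with -0.75 to -0.40 over the fits that leave out a library and -0.55 without library FTL_344). Slc17a8 ranged from 2.13 to 3.41 CPM (median 2.64) in vehicle and from 2.48 to 6.32 CPM (median 3.002) in THC libraries, where the 2 highest were library FTL_343 at 6.32 CPM and the library labelled female FTL_344 at 5.47 CPM. Its log2 fold change was 0.50 (SE 0.24, adjusted p = 0.235), with 0.30 without library FTL_343, 0.36 without FTL_344 and 0.60 without FTL_339. Slc32a1 ranged from 260.6 to 351.1 CPM (median 303.8) in vehicle and from 251 to 337.1 CPM (median 281.7) in THC libraries (log2 fold change -0.07, SE 0.09, adjusted p = 0.641, -0.05 without library FTL_344 and -0.13 without FTL_337), so the groups overlapped.

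In the male Amy, edgeR called 0 of 4 members, against 0% of 15321 genes, while 0 had an unadjusted p under 0.05 and DESeq2 called 0. Slc17a7 ranged from 283.4 to 692 CPM (median 616) in vehicle and from 313.9 to 1107 CPM (median 581) in THC libraries. The highest value of all Amy libraries, 1107 CPM, was that of the library labelled male FTL_356. The log2 fold change was 0.18 (SE 0.29, adjusted p = 1.00), and -0.06 without library FTL_356. Slc17a6 ranged from 18.6 to 69.5 CPM (median 52.6) in vehicle and from 10.8 to 110 CPM (median 62.5) in THC libraries (log2 fold change 0.29, SE 0.45, adjusted p = 1.00). It was 0.23 without library FTL_356, and ran from 0.04 without FTL_351 to 0.51 without FTL_352. Slc17a8 ranged from 2.08 to 4.16 CPM (median 2.96) in vehicle and from 1.12 to 5.56 CPM (median 2.31) in THC libraries, with 3 of 6 below all vehicle libraries and 1 above. Its log2 fold change was -0.19 (SE 0.30, adjusted p = 1.00), -0.06 without library FTL_356, and ran from -0.55 without FTL_352 to -0.06 without FTL_354. Slc32a1 ranged from 307.2 to 372.7 CPM (median 345.7) in vehicle and from 255.96 to 402 CPM (median 311.6) in THC libraries, also with 3 of 6 below and 1 above. Its log2 fold change was -0.11 (SE 0.09, adjusted p = 1.00), -0.07 without library FTL_356, and ran from -0.19 without FTL_352 to -0.05 without FTL_354.

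The interaction of sex and treatment was called for 0 of 4 members in the Amy, against 0.00590% of genes, while 0 had an unadjusted p under 0.05 and DESeq2 called 0. Over all genes 2675 of 16956 had an unadjusted p under 0.05. For Slc17a7 the interaction was -0.58 (SE 0.32, adjusted p = 0.374), and -0.82 (adjusted p = 0.200) without both libraries of mismatched sex, so the difference in females is not shown to differ from that in males.

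**Figure D4:**
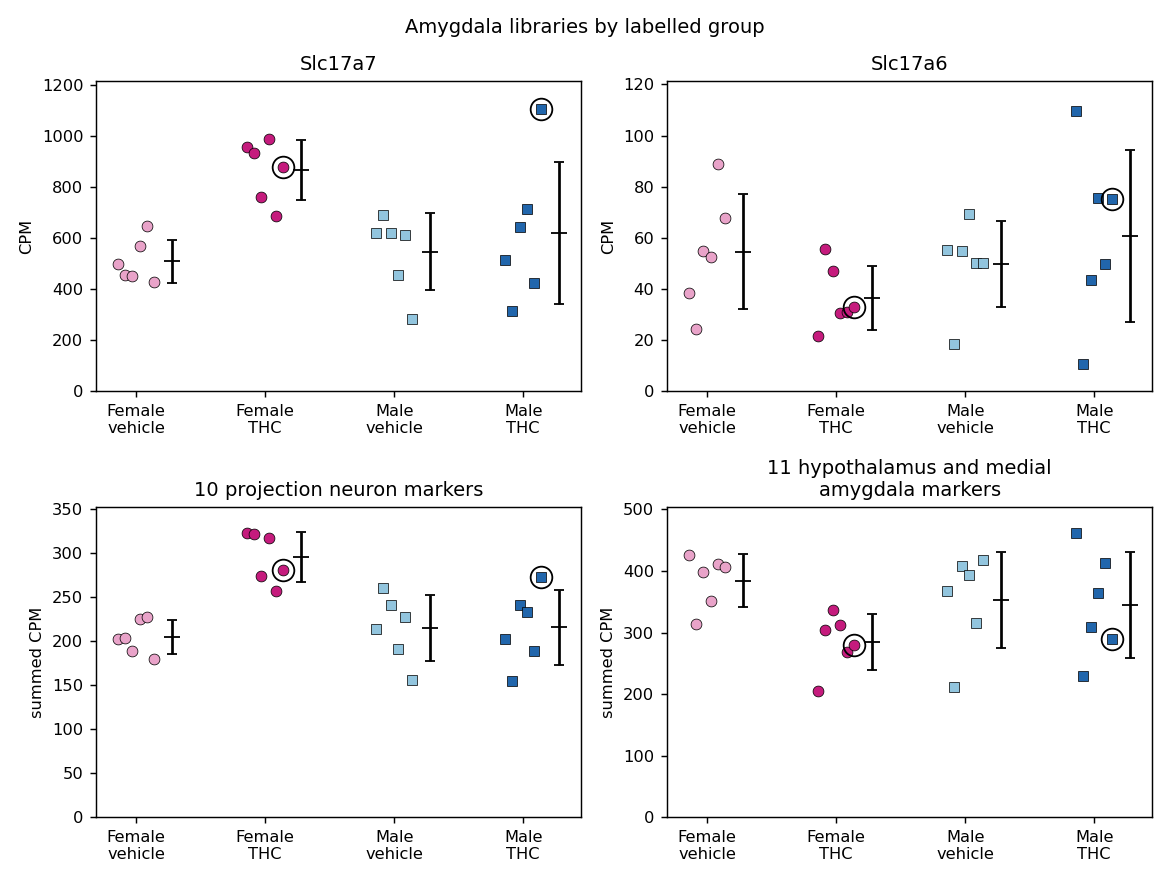
Amygdala libraries by labelled group: CPM of Slc17a7 and Slc17a6, and summed CPM of 10 projection neuron markers and of 11 hypothalamus and medial amygdala markers; bars are mean ± SD and rings mark the libraries of mismatched sex, FTL_344 and FTL_356. Slc17a7 and the projection neuron sum do not overlap between female vehicle and female THC, while Slc17a6 does.

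Of 10 projection neuron markers tested in the female Amy, 3 rose, 0 fell and 7 were not called, against 1.57% of all genes called. The 3 were Neurod6 (log2 fold change 0.83, adjusted p = 0.0353), Tbr1 (0.94, adjusted p = 0.0103) and Rspo2 (1.14, adjusted p = 0.0203). The median over the list was 0.59, against -0.01 over all genes tested. Their summed level was 180 to 228 CPM in vehicle (median 203) and 257 to 322.7 CPM in THC libraries (median 299.1), with no overlap. The most abundant was Cux2, at 53.2 ± 7.76 CPM over the Amy (SD, n = 24). The first 3 of the list, Neurod6, Neurod2 and Tbr1, were present in every group, the lowest value being 11.8 CPM. Without library FTL_344 the same 3 genes were called and the median was 0.60. Their part in the Slc17a7 difference was not tested. How often sums of other genes separate as this sum did was not counted. This list and the other marker and pathway lists were chosen with earlier results of these data known. Their counts and medians are thus descriptions.

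Of 11 markers of the hypothalamus or medial amygdala, 8 were tested in the same comparison and 1 fell, Lhx5 (log2 fold change -1.47, adjusted p = 0.0123). The list median was -1.51, and without library FTL_344 the same gene was called and the median was -1.44. The summed level was 314.4 to 426 CPM in vehicle (median 402) and 205 to 336.04 CPM in THC libraries (median 291.3), with overlap, and Baiap3 was the most abundant at 318.9 ± 63.4 CPM over the Amy. The first 3 of the list were low: in THC libraries the medians were 0.479 CPM for Sim1, 2.04 CPM for Otp and 0.376 CPM for Fezf1, against 1.49, 8.06 and 1.47 CPM in vehicle. Choroid plexus markers were uneven between libraries, at 3467 CPM summed in FTL_343, 2167 in FTL_344, 1124 in FTL_338, 860 in FTL_335, 433 in FTL_337 and 455 in FTL_356, and 21.4 CPM or less in the other 18 Amy libraries. Ttr was the most abundant of them and was 0 in part of the libraries of both female groups, and 0 of the 3 list genes tested were called. The 2 libraries with the highest choroid plexus sums were also the 2 libraries labelled female with the highest Slc17a8. This did not hold over all Amy libraries. Male THC library FTL_352 held 5.56 CPM of Slc17a8 with a choroid plexus sum of 21.4 CPM or less. Libraries FTL_338 and FTL_356, with sums of 1124 and 455 CPM, had Slc17a8 log2 CPM of 1.27 and 0.65, against 2.47 in FTL_344. The part of these lists in the results was not tested.

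The counts of the other marker lists in the female Amy stand against 1.57% of all genes called. Of 7 interneuron markers 1 fell, Lhx6 (log2 fold change -0.48, adjusted p = 0.0258). Of 6 dopaminergic markers tested 1 rose, Nr4a2 (0.59, adjusted p = 0.0168), and 1 fell, Th (-0.64, adjusted p = 0.0253, not called without library FTL_344, adjusted p = 0.0519). For 10 medium spiny neuron markers 0 were called and the median was 0.66, with a summed level of 557 to 1157 CPM in vehicle and 926 to 1520 CPM in THC libraries. For oligodendrocytes (6 genes), astrocytes (5), microglia (5), endothelium (5), thalamus (5) and cholinergic neurons (4), 0 were called, with medians of -0.44, -0.19, -0.05, -0.11, 0.13 and 0.05.

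Lists of the machinery of glutamate and GABA release were counted in the female Amy, where 1.57% of all genes were called. Of 12 synaptic vesicle proteins 1 rose, Sv2b (log2 fold change 0.60, adjusted p = 0.0203), a vesicle glycoprotein, and the list median was 0.14. Of 13 genes of glutamate synthesis and uptake 0 were called (median 0.10), and Slc1a2, the main astrocyte glutamate transporter, had 0.31 (adjusted p = 0.180). Of 7 tested genes of GABA synthesis, breakdown and uptake 0 were called (median -0.04), with the GABA-synthesizing enzymes Gad1 at 0.03 (adjusted p = 0.873) and Gad2 at -0.04 (adjusted p = 0.873). Of 16 genes of the vacuolar proton pump 0 were called (median 0.00), and of 4 tested other members of the SLC17 and SLC18 families 0 (median 0.05). In the remaining 9 comparisons of THC with vehicle, 0 genes of these 5 lists were called, but over all genes 2 were called in the female DMS and 0 in the other 8, so these counts say little about the lists.

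Within Amy groups, after each sex and treatment group was centred on its mean, the genes closest to Slc17a7 over the 24 libraries were Lingo1 (r = 0.966), Syn2 (0.947), Nptxr (0.939), Amph (0.938) and Zbtb18 (0.937). Those closest to Slc17a6 were Adcyap1 (0.968), Lhx9 (0.960), Medag (0.957), Barhl2 (0.953) and Tmem215 (0.949). These are descriptions over 16956 genes, chosen as the highest, with no test.

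The male VTA held the largest fold change of Slc17a8, at low counts. The 5 vehicle libraries, FTL_369 to FTL_373, held 1.17, 0.453, 1.19, 0.489 and 0.441 CPM, and the 6 THC libraries ranged from 1.07 to 12.2 CPM (median 2.69). A total of 5 THC libraries lay above every vehicle library and 1 overlapped them. The log2 fold change was 2.80 (SE 0.71), it was not called in edgeR (adjusted p = 0.819) or DESeq2 (2.63, adjusted p = 0.167), and it ran from 2.14 without library FTL_377 to 3.11 without library FTL_369. Here edgeR called 0 of 4 members, against 0% of 17103 genes, while 1 had an unadjusted p under 0.05 and DESeq2 called 0. In females the ranges overlapped, from 1.02 to 3.62 CPM (median 1.46) in vehicle and from 0.853 to 1.76 CPM (median 1.17) in THC libraries (log2 fold change -0.52, SE 0.32, adjusted p = 0.631, from -0.66 without library FTL_359 to -0.20 without FTL_362).

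For the interaction of sex and treatment in the VTA, edgeR called 0 of 4 members, against 0% of genes, 1 had an unadjusted p under 0.05 and DESeq2 called 0. Over all genes 1040 of 16881 had an unadjusted p under 0.05. The Slc17a8 interaction was 3.30 (SE 0.76, adjusted p = 0.780).

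Serotonergic markers were followed across VTA libraries as the summed level of Tph2, Slc6a4 and Fev. In male THC libraries the sum was 124 CPM in FTL_377, 60.5 CPM in FTL_375 and 27.5 CPM in FTL_376, and 1.05 to 2.10 CPM in the other 3. The same 3 libraries held the 3 highest Slc17a8 levels of the group, 12.2, 2.92 and 5.72 CPM. Library FTL_374 held 2.46 CPM of Slc17a8 with a sum of 2.10 CPM, and male vehicle libraries FTL_369 and FTL_371 held 1.17 and 1.19 CPM with sums of 17.3 and 0.298 CPM. Among vehicle libraries the sum was 17.3 CPM in male FTL_369, 18.0 CPM in female FTL_357 and 15.1 CPM in female FTL_362, and 2.21 CPM or less elsewhere. Female FTL_357 and FTL_362 were the 2 highest female vehicle libraries in Slc17a8, at 2.58 and 3.62 CPM. Tph2 was the most abundant marker (7.14 ± 15.9 CPM over the VTA, SD, n = 23), and Slc6a4 had a count of 0 in 7 of 23 libraries. Of the 3 markers, 2 were tested in males and 0 called (Slc6a4 3.25 and Tph2 3.02, each with adjusted p = 0.819). After centring on groups, Slc6a4 (r = 0.765), Evi2b (0.724), Tph2 (0.723), Calcrl (0.722) and Otp (0.721) were the genes closest to Slc17a8 over the 23 VTA libraries. The part of the serotonergic markers in the result was not tested.

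**Figure D5:**
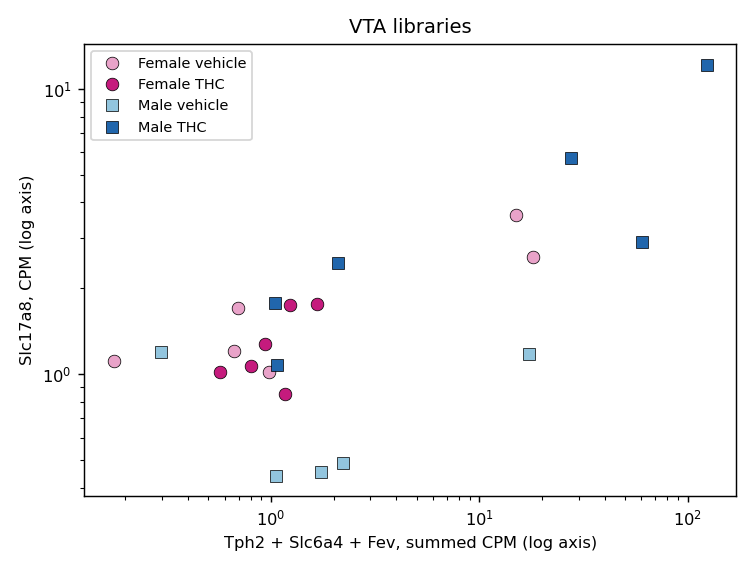
Slc17a8 (CPM) against the summed CPM of the serotonergic markers Tph2, Slc6a4 and Fev in the 23 VTA libraries, both on log axes; circles are females, squares males, and dark symbols THC. The male THC libraries FTL_375, FTL_376 and FTL_377 have sums of 27.5 CPM or more and Slc17a8 of 2.92 CPM or more.

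In the female VTA, edgeR called 0 of 4 members, against 0% of 15747 genes, while 1 had an unadjusted p under 0.05 and DESeq2 called 0. That 1 was Slc17a6, the main glutamate transporter of this region, which ranged from 131 to 250 CPM (median 180) in vehicle and from 209 to 360.6 CPM (median 263.4) in THC libraries. A total of 3 THC libraries lay above every vehicle library and the others overlapped. The log2 fold change was 0.50 (SE 0.19, adjusted p = 0.512). Slc17a7 ranged from 2.93 to 74.2 CPM (median 25.1) in vehicle and from 1.14 to 68.7 CPM (median 1.84) in THC libraries, and 5 of 6 THC libraries lay below all vehicle libraries. Its log2 fold change was -1.02 (SE 1.14, adjusted p = 0.793), from -4.10 (adjusted p = 0.142) without THC library FTL_365, the highest, to -0.53 without FTL_361. Slc32a1 ranged from 173 to 231 CPM (median 185) in vehicle and from 120 to 208 CPM (median 165) in THC libraries, with 4 of 6 below all vehicle libraries (log2 fold change -0.21, SE 0.11, adjusted p = 0.600, and -0.13 without library FTL_368).

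The 2 female VTA THC libraries highest in Slc17a6, FTL_368 at 360.6 CPM and FTL_363 at 318.6 CPM, were the lowest of the group in the summed level of 10 dopaminergic markers, at 2236 and 1611 CPM against 3296 to 4757 CPM in the other 4. Of the 10 dopaminergic markers, 0 were called, the list median was -0.35, and the first 3 (Th, Slc6a3 and Slc18a2) were far above 0. Thalamus markers, of which Rora was the most abundant, summed to 133 to 164 CPM in vehicle and 134 to 217.5 CPM in THC libraries, and 4 of 6 THC libraries lay above all vehicle libraries (0 of 5 called, median 0.15). Library FTL_363 was the highest in this sum and FTL_368 the lowest of its group, while FTL_368 had the highest sum of hypothalamus and medial amygdala markers, 311.99 CPM against 150 to 274.2 CPM in vehicle (0 of 7 called, median -0.06). Microglia markers summed to 199 to 249 CPM in vehicle and 150 to 223 CPM in THC libraries, with 5 of 6 below all vehicle libraries (0 of 5 called, median -0.37). Astrocyte markers summed to 1398 to 2121 CPM in vehicle and 746 to 2079 CPM in THC libraries, with 4 of 6 below all vehicle libraries (0 of 5 called, median -0.20). The part of these lists in the values of the members was not tested. Without library FTL_365, 15 genes were called over all genes in the female VTA, none of them a member.

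The male VTA vehicle group held 196, 144, 365.7, 185 and 161 CPM of Slc17a6 in libraries FTL_369 to FTL_373, and the THC libraries 167 to 249 CPM (median 214). Library FTL_371, the highest, had the lowest total count, 99.6 CPM of Slc32a1 against 211 to 265.7 CPM in the other 4, and 1960 CPM of summed dopaminergic markers against 4175 to 5031 CPM. The Slc17a6 log2 fold change was -0.01 (SE 0.24, adjusted p = 1.00), and its sign turned without FTL_371 (0.28), FTL_375 (0.05) or FTL_377 (0.05). Slc17a7 in this group was 1.97, 2.85, 38.5, 0.875 and 1.88 CPM, and in THC libraries 0.895 to 127 CPM (median 2.41), where FTL_376 at 127 CPM and FTL_377 at 71.1 CPM stood apart. Its log2 fold change was 3.16 (SE 1.87, adjusted p = 0.819), from 1.74 without library FTL_376 to 4.14 without FTL_371.

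In the male NAc, edgeR called 0 of 4 members, against 0% of 15932 genes, while 2 had an unadjusted p under 0.05 and DESeq2 called 0, with no adjusted p for 3 of them. Over all genes 2653 had an unadjusted p under 0.05. Slc17a6 ranged from 9.24 to 25.6 CPM (median 11.7) in vehicle and from 1.32 to 8.58 CPM (median 5.98) in THC libraries. All 6 THC libraries lay below all 6 vehicle libraries, but the share of all genes that separate in this way was not counted. The log2 fold change was -1.45 (SE 0.42, adjusted p = 0.210, with -1.65 to -1.22 over the fits that leave out a library). Slc17a7 ranged from 0.886 to 85.8 CPM (median 2.45) in vehicle and from 0.669 to 8.87 CPM (median 1.09) in THC libraries, and the vehicle libraries FTL_324 and FTL_325 at 85.8 and 42.2 CPM stood above the rest (log2 fold change -3.05, SE 1.29, adjusted p = 0.276, from -3.98 without library FTL_327 to -1.84 without FTL_324). The interaction was called for 0 of 4 members in the NAc, against 0% of genes, while 1 had an unadjusted p under 0.05 (Slc17a7, -4.62, SE 1.76, adjusted p = 0.397, with 1.56 in females) and DESeq2 called 0. Over all genes of that interaction 1845 of 16773 had an unadjusted p under 0.05.

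No gene of the following marker lists was called in the male NAc. Medium spiny neuron markers summed to 3118 to 4634 CPM in vehicle and 4052 to 6373 CPM in THC libraries, with 0 of 10 called and a list median of 0.37. Hypothalamus and medial amygdala markers summed to 199 to 321.8 CPM in vehicle and 160 to 313.2 CPM in THC libraries, with 0 of 4 called and a median of -0.42. Baiap3 was the most abundant of them (223 CPM over the NAc), and Sim1 and Otp were at or near 0. Projection neuron markers summed to 99.9 to 121 CPM in vehicle and 84.7 to 114 CPM in THC libraries, with 0 of 5 called. Among them Tbr1 ranged from 2.59 to 9.24 CPM in vehicle and from 0.362 to 3.60 CPM in THC libraries (log2 fold change -1.74). Tbr1 is a single gene and does not stand for the list, whose summed levels overlapped. The part of these markers in the Slc17a6 values was not tested. In the female NAc, edgeR called 0 of 4 members, against 0% of 16428 genes, while 0 had an unadjusted p under 0.05 and DESeq2 called 0. Slc17a7 there ranged from 0.773 to 33.8 CPM (median 12.5) in vehicle and from 0.707 to 115 CPM (median 40.6) in THC libraries, with 3 of 6 above all vehicle libraries and 1 below (log2 fold change 1.56, SE 1.14, adjusted p = 0.991).

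In the DMS a library set the Slc17a7 values. Female vehicle library FTL_285 held 206 CPM of Slc17a7, and the other 23 DMS libraries 1.66 to 19.0 CPM. The female log2 fold change was -3.17 (SE 1.43, adjusted p = 0.561), and 0.67 without library FTL_285. Library FTL_285 also held the highest Slc17a6 of the DMS (1.86 CPM), 17.5 CPM of Slc17a8 (23.8 to 28.0 CPM in the other libraries of its group) and 135 CPM of summed projection neuron markers against 48.7 to 69.5 CPM in all other DMS libraries. Of these markers 0 of 4 tested were called in the female DMS, and their part in the result was not tested. Here edgeR called 0 of 3 members tested, against 0.0127% of 15800 genes, which is 2 genes, while 0 had an unadjusted p under 0.05 and DESeq2 called 0. The count of 2 genes became 6 without library FTL_285, 7 without FTL_286, 1 without FTL_291 and 0 without each of the other 9. In the male DMS, edgeR called 0 of 3 members tested, against 0% of 16093 genes, while 0 had an unadjusted p under 0.05 and DESeq2 called 0.

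In the PFC edgeR called 0 of 4 members in females, against 0% of 15904 genes, and 0 of 4 in males, against 0% of 15936 genes, while 0 had an unadjusted p under 0.05 in either sex and DESeq2 called 0. Slc17a7 ranged from 1763 to 1926 CPM (median 1875) in female vehicle and from 1814 to 2092 CPM (median 1875) in female THC libraries (log2 fold change 0.03, SE 0.04, adjusted p = 0.941). In males it ranged from 1884 to 2046 CPM (median 1946) in vehicle and from 1767 to 2002 CPM (median 1902) in THC libraries (-0.04, SE 0.03, adjusted p = 1.00). These groups overlapped almost wholly. For Slc32a1 the log2 fold changes over all 10 comparisons lay between -0.21 in the female VTA and 0.07 in the female NAc. A library left out moved some of them, the male VTA value of -0.14 to -0.30 without FTL_371 and to -0.06 without FTL_372, and the female VTA value to -0.13 without FTL_368. In the female NAc 5 of 6 THC libraries lay above all vehicle libraries in Slc32a1 (SE 0.04, adjusted p = 0.991).

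With the sexes in a joint fit, edgeR called 0 of 19 member tests, against 0% of genes in each region, while 2 had an unadjusted p under 0.05 and DESeq2 called 0. These were Slc17a7 in the Amy (log2 fold change 0.47, SE 0.17, adjusted p = 0.677, and 0.35 without the libraries of mismatched sex) and Slc17a6 in the NAc (-0.80, SE 0.36, adjusted p = 0.469). Over all genes the unadjusted p was under 0.05 for 776 of 16230 (PFC), 801 of 16366 (DMS), 1700 of 16494 (NAc), 1174 of 16653 (Amy) and 1679 of 16540 (VTA). The interaction in the PFC was called for 0 of 4 members, against 0% of genes, and in the DMS for 0 of 3, against 0% of genes. Of these 0 and 1 had an unadjusted p under 0.05, and DESeq2 called 0. Over all genes that p was under 0.05 for 965 of 16451 (PFC) and 980 of 16605 (DMS). The member was Slc17a7 in the DMS (4.08, SE 1.66, adjusted p = 0.793). Its female log2 fold change turned from -3.17 to 0.67 without library FTL_285.

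Males were compared with females over both treatments. For the PFC edgeR called 0 of 4 members (0.240% of genes), for the DMS 0 of 3 (2.64%), for the NAc 0 of 4 (0.243%), for the Amy 0 of 4 (0.0120%) and for the VTA 0 of 4 (0.109%). The Amy share is 2 genes, and 14 genes were called without the libraries of mismatched sex, FTL_344 and FTL_356. Of the 19 tests, 5 had an unadjusted p under 0.05 and DESeq2 called 0. Over all genes that p was under 0.05 for 2653 of 16230 (PFC), 4554 of 16366 (DMS), 2737 of 16494 (NAc), 999 of 16653 (Amy) and 1185 of 16540 (VTA). In the DMS Slc17a8 had a log2 fold change of -0.22 for male against female (SE 0.08, adjusted p = 0.0612), with 20.4 ± 3.53 CPM in male and 24.9 ± 3.90 CPM in female vehicle libraries, and 21.0 ± 2.28 and 23.97 ± 2.18 CPM in THC libraries (SD, n = 6). In the PFC Slc32a1 had -0.08 (SE 0.03, adjusted p = 0.180) and Slc17a6 -0.17 (SE 0.07, adjusted p = 0.181). Slc17a8 had 0.29 in the NAc (SE 0.11, adjusted p = 0.196), opposite in sign to the DMS, and Slc32a1 had 0.15 in the Amy (SE 0.07, adjusted p = 0.765, and 0.16 without the libraries of mismatched sex).

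In 3 regions a pair of members varied in opposite directions between punches. Correlations of log2 CPM were computed for 3 pairs in 5 regions, 15 relations in all, with permutation tests and Benjamini-Hochberg adjustment over the 15. In the VTA Slc17a6 and Slc32a1 had r = -0.65 (permutation p = 0.00071, adjusted p = 0.0107) and rho = -0.53 (permutation p = 0.0102, adjusted p = 0.0593) over 23 libraries, and r = -0.38 without libraries FTL_368 and FTL_371. In the Amy Slc17a7 and Slc32a1 had r = -0.57 (permutation p = 0.00409, adjusted p = 0.0307) and rho = -0.49 (permutation p = 0.0158, adjusted p = 0.0593) over 24 libraries, and r = -0.36 without FTL_350 and FTL_352. In the PFC Slc17a6 and Slc17a7 had r = -0.54 (permutation p = 0.00775, adjusted p = 0.0388) and rho = -0.50 (permutation p = 0.0126, adjusted p = 0.0593) over 24 libraries, and r = -0.43 without FTL_268 and FTL_284. Each relation was weaker without its 2 farthest libraries, most so in the VTA and Amy, and no adjusted p of a rho was under 0.05. That depends on the scaling, since without the TMM factor the adjusted p of rho was 0.0135 for the VTA pair, 0.0135 for the Amy pair and 0.0404 for the PFC pair. Within groups, r for the VTA pair ran from -0.87 in male vehicle to -0.22 in female vehicle, and r for the Amy pair from -0.83 in male THC to 0.15 in female THC. For the PFC pair it ran from -0.82 in female THC to 0.29 in female vehicle. Centred on group means, the 3 were -0.61, -0.53 and -0.59, with rho of -0.37 (adjusted p = 0.221), -0.40 (adjusted p = 0.216) and -0.51 (adjusted p = 0.0588).

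The remaining 12 relations had an adjusted p of at least 0.0512 by r. In the DMS Slc17a6 and Slc17a7 had r = 0.53 (permutation p = 0.0137, adjusted p = 0.0512) and rho = -0.04 (permutation p = 0.849, adjusted p = 0.976), and r = 0.14 without libraries FTL_285 and FTL_297, so this relation rests on those libraries. Centred on group means, 3 of the 12 had an adjusted p under 0.05 by r: this pair in the DMS (0.63, adjusted p = 0.0118, rho adjusted p = 0.301), Slc17a6 and Slc32a1 in the Amy (-0.64, adjusted p = 0.0116, rho adjusted p = 0.0170) and Slc17a7 and Slc32a1 in the VTA (-0.58, adjusted p = 0.0118, rho adjusted p = 0.0170). Which relations pass thus depends on the centring. The log2 ratio of Slc17a7 to Slc17a6, a description only, averaged 7.09 ± 0.23 for the PFC, 4.18 ± 1.33 for the DMS, 3.74 ± 0.89 for the Amy, -0.41 ± 2.87 for the NAc (SD, n = 24 each) and -5.13 ± 2.48 for the VTA (n = 23). In the DMS 7 of 24 libraries had a Slc17a6 count of 0, so that mean and its place above the Amy depend on the prior count of 2. The ratio in the female Amy is given by group. It was 2.66 to 4.22 in vehicle (median 3.24) and 4.01 to 5.45 in THC libraries (median 4.60), so the groups overlapped at the top of one and the bottom of the other.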

How the data were processed

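The deposited expected counts of the authors were used, a table for PFC and DMS and another for NAc, Amy and VTA. By the submitters' processing notes, reads were trimmed with cutadapt 2.9, aligned to mm10 with STAR 2.7.3a and counted with RSEM 1.3.1. The library kit is directional, and the notes do not state how strand was used in counting. Expected counts were rounded to whole numbers. No library was left out of the main results, and all 119 sample columns were used.

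Tests used edgeR 4.0.16 in R 4.3.3 with limma 3.58.1: filterByExpr, TMM factors, the quasi-likelihood test with robust dispersion, two-sided, and Benjamini-Hochberg adjustment over all genes tested in a comparison. A gene was called at an adjusted p under 0.05 where its log2 fold change was 0.4 or more in either direction. Each THC comparison was fitted on its own 2 groups, and interactions on the 4 groups of a region. Levels are TMM-scaled CPM over all 119 libraries, and relations used log2 CPM with a prior count of 2 and 100000 permutations. Per kilobase levels divide by the length of the principal GENCODE transcript. Alternatives were DESeq2 1.42.0, its size factors, no filter on low counts, a fit of 4 groups, THC libraries for the regions, plain CPM, centring on group means, and leaving out libraries. Leaving out each library of the female DMS, leaving library FTL_285 out of DMS against PFC, and using the length of all exons were chosen after the data were seen. Tables and figures were made in python 3.11.15 with numpy 2.4.6, scipy 1.17.1, pandas 2.3.3 and matplotlib 3.10.9.

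The 4 members and the marker and pathway lists were chosen with earlier results of these data known. Genes outside the lists are named only as the 5 genes closest to a member or as overlapping it. Within a region each library was taken as a separate mouse and an independent replicate. Comparisons of regions hold libraries of the same mice, which were treated as independent. As a check of the code, 200 genes were changed in counts simulated for 3 comparisons. Of these edgeR called 200, 200 and 196, with 9, 10 and 13 unchanged genes. The simulation gave all genes the same dispersion, and the changed genes were well counted with changes above the minimum for a call. It does not measure power for members with low counts or uneven libraries.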

Additional observations from a re-analysis of the deposited data

Results flagged for a closer look

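A Dixon test in each of the 80 groups of gene, region, sex and treatment marked 9 values that stand far from the others of their group. By chance alone about 1 in 20 groups would hold such a value.

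Slc17a6 in library FTL_285 (female DMS vehicle) was 1.86 CPM, and the next highest of its group 0.0959 CPM. Slc17a6 in library FTL_371 (male VTA vehicle) was 365.7 CPM, and the next highest 196 CPM.

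Slc17a7 stood apart in 5 libraries. It was 206 CPM in library FTL_285 (female DMS vehicle, next highest 2.98 CPM), 10.7 CPM in library FTL_296 (female DMS THC, next highest 3.50 CPM) and 19.0 CPM in library FTL_308 (male DMS THC, next highest 2.72 CPM). It was 68.7 CPM in library FTL_365 (female VTA THC, next highest 2.38 CPM) and 38.5 CPM in library FTL_371 (male VTA vehicle, next highest 2.85 CPM).

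Slc17a8 was 5.44 CPM in library FTL_267 (female PFC THC, next highest 3.77 CPM) and 6.40 CPM in library FTL_283 (male PFC THC, next highest 4.79 CPM).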

How the results depend on the processing

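Under other settings 7 member values changed sign, 2 were weaker, 4 stronger and 2 moved, and with a library left out 18 changed sign. Libraries were left out in turn for THC in the Amy and VTA of both sexes, the male NAc and the female DMS only. For comparisons among NAc, Amy and VTA the male VTA vehicle libraries were left out in turn, and for DMS against PFC library FTL_285 alone. Interactions, sex tests and the other THC comparisons had no fit with each library left out. DESeq2 gave no adjusted p for 12 member tests, and these were left out of the comparison.

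Slc17a7 in the female Amy had a log2 fold change of 0.76 with an adjusted p of 0.0870 with all 4 groups in a fit, and an adjusted p of 1.06e-07 in DESeq2. Slc17a8 in VTA against Amy was -0.32 in THC libraries (adjusted p = 0.404). Without the TMM factor the mean was 1758 CPM for Slc17a7 and 69.9 CPM for Slc32a1 in the PFC.

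The sign turned for Slc17a6 in the male VTA with no filter on low counts (0.00773), for Slc17a8 in male against female Amy without both libraries of mismatched sex (0.0228), and for Slc17a7 in male against female VTA in DESeq2 (0.00361). It also turned for Slc17a7 in VTA against NAc, in DESeq2 (0.00868) and in THC libraries (0.52).

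For relations, the adjusted p of rho without the TMM factor was 0.0135 for Slc17a6 with Slc32a1 in the VTA, 0.0135 for Slc17a7 with Slc32a1 in the Amy and 0.0404 for Slc17a6 with Slc17a7 in the PFC. Centred on group means it was 0.221, 0.216 and 0.0588. The r of Slc17a6 with Slc17a7 in the DMS was 0.54 without the TMM factor and 0.63 centred on group means. Without the TMM factor its adjusted p was 0.0408 and centred 0.0118. Centred values were also 0.0495 for Slc17a6 with Slc17a7 in the VTA, -0.58 (adjusted p = 0.0118) for Slc17a7 with Slc32a1 in the VTA, -0.35 for Slc17a6 with Slc32a1 in the PFC and -0.64 (adjusted p = 0.0116) for the same pair in the Amy. For Slc17a6 with Slc17a7 in the Amy, r was 0.07, and -0.19 without its 2 farthest libraries, and for Slc17a6 with Slc32a1 in the PFC it was 0.03 and -0.18.

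With each library left out in turn, Slc17a7 in the female DMS ran from -3.71 to 0.67 and Slc32a1 there from -0.0100 to 0.0417. In the male NAc Slc17a8 ran from -0.13 to 0.0645 and Slc32a1 from -0.0120 to 0.0297. Slc17a7 in the male Amy ran from -0.0574 to 0.32, Slc17a6 in the male VTA from -0.12 to 0.28 and Slc17a7 in VTA against NAc from -0.33 to 0.0663. Slc17a7 in DMS against PFC was -9.49 without library FTL_285, and Slc17a6 was -6.09.

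Counts over all genes depended on the tool. The female Amy count, 186 higher and 81 lower, was 546 in all in DESeq2, 126 with 4 groups in a fit, and as low as 56 with a library left out. The female DMS count of 2 was 25 in DESeq2, 4 with no filter, 5 with 4 groups in a fit and 0 to 7 with a library left out. The female VTA count of 0 was 6 in DESeq2, 1 with no filter and 15 without library FTL_365. The count of 0 became 3 in the male NAc and 1 in the male VTA in DESeq2. The Amy interaction count of 1 was 27 in DESeq2, 2 with no filter and 0 without the mismatched libraries, and the DMS interaction count of 0 was 3 in DESeq2. With the sexes together the Amy count of 0 was 2 in DESeq2. For male against female, 40 became 65 in the NAc, 2 became 13 in the Amy and 18 became 34 in the VTA in DESeq2, and the Amy count was 14 without the mismatched libraries.

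No paired analysis was possible because the labels do not tie libraries to mice. Groups of 5 or 6 leave small differences unseen, and depth differed between groups of the Amy and VTA. The cause of the mismatch between sex genes and labels was not tested.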
